A study of Bos taurus with 8 samples.

Results

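IDH2 and MGST3 are redox genes that were examined here as a pair in bovine blastocysts. They are 2 of the 52 named genes in the study's table of metabolic pathway genes. The files counted 27607 genes, of which 15513 had enough reads to be tested, both genes among them. Both were chosen by their difference between blastocysts of prepubertal and pubertal donors in these same 8 libraries. Their group differences are therefore given as a description, and no p-value is given for them. IDH2 is ENSBTAG00000014093 and MGST3 is ENSBTAG00000010265.

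The study compared the transcriptomes of blastocysts produced in vitro from oocytes of young and older Polish Holstein-Friesian heifers. Oocytes were aspirated from live donors by ovum pick-up, matured, and fertilized with frozen semen of a single bull. Blastocysts of quality grades 1 and 2 were collected on day 7 and sequenced as total RNA. Age and ovarian structures, a dominant follicle or a corpus luteum, defined the groups. Pubertal donors, the control, had one of these structures and were over 15 months old. Prepubertal donors had neither and were under 10 months old. Each group had 4 libraries, and about 5 blastocysts were pooled for each. Oocytes were pooled within each group for maturation, and no library was assigned to a donor. If the pools were not separate cultures or donors, p-values measure only the spread between these libraries. In whole blastocysts, fewer cells of a type and less RNA per cell cannot be told apart. Markers of trophectoderm and inner cell mass were not analysed here, since names were paired with identifiers only for the 52 genes.

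The sources disagree on 2 of the 8 libraries. The sample labels place library 4 with the prepubertal group and library 8 with the pubertal group, whereas the study's own table of gene values has them the other way round. The groups of that table were used: libraries 1, 2, 3 and 8 were prepubertal and libraries 4, 5, 6 and 7 pubertal. No group was inferred from expression. The group differences of IDH2, MGST3 and the other glutathione metabolism genes are also given with the groups of the labels and with the 6 undisputed libraries.

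Gene counts summed to 18510164 in library 7 and 29549143 in library 4, the lowest and the highest totals. Libraries 3 and 7 stood apart, one in each group. Reads outside annotated genes made up 54.1% of uniquely mapped reads in library 3 and 47.5% in library 7, against 35.8% to 41.6% in the other 6. A read was found for 24203 genes in library 3 and 24044 in library 7, against 19503 to 20885 in the others. Results are also given without these libraries, a choice made after seeing the data.

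IDH2 encodes the mitochondrial isocitrate dehydrogenase that uses NADP and makes NADPH. Glutathione reductase spends NADPH to return oxidized glutathione to its reduced form, which peroxidases and transferases then use against peroxides and reactive compounds. MGST3 encodes a microsomal glutathione transferase, a membrane protein of the MAPEG family with transferase and peroxidase activity. Levels are in counts per 1000000 gene counts (CPM) and were not compared between genes, since they were not corrected for transcript length.

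IDH2 was lower on average in blastocysts from pubertal donors, but the groups overlapped. In the prepubertal group, IDH2 was at 48.3 CPM in library 1, 39.9 in library 2, 52.3 in library 3 and 51.8 in library 8. In the pubertal group, it was at 40.7 CPM in library 4, 29.4 in library 5, 26.3 in library 6 and 33.3 in library 7. Libraries 3, 8 and 1 were highest and libraries 5 and 6 lowest. The overlap lay in a single pair: pubertal library 4 stood just above prepubertal library 2. Library 4 is one of the disputed libraries.

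The mean level of IDH2 was 48.1 ± 5.71 CPM (SD, n = 4) in prepubertal and 32.5 ± 6.20 CPM (SD, n = 4) in pubertal libraries, or 32.5% lower. The fitted log2 fold change, pubertal over prepubertal, was -0.53 (SE 0.13). Counts ran from 617 in library 7 to 1287 in library 8. Exact Poisson 95% intervals, which cover counting error only, separated library 1 from library 4 and library 2 from library 7. The other neighbours in the order 3, 8, 1, 4, 2, 7, 5, 6 had overlapping intervals. The coefficient of variation was 11.9% among prepubertal and 19.1% among pubertal libraries, whereas counting alone gives 2.98% and 3.45%.

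MGST3 was also lower on average in blastocysts from pubertal donors, and the groups did not overlap. In the prepubertal group, MGST3 was at 5.80 CPM in library 1, 7.45 in library 2, 5.47 in library 3 and 4.55 in library 8. In the pubertal group, it was at 2.91 CPM in library 4, 2.75 in library 5, 2.21 in library 6 and 3.30 in library 7. Library 2 was the highest of the 8 and library 6 the lowest. The groups came closest at prepubertal library 8 and pubertal library 7, whose counting intervals of 3.75 to 5.47 and 2.52 to 4.23 CPM overlapped.

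The mean level of MGST3 was 5.82 ± 1.21 CPM (SD, n = 4) in prepubertal and 2.79 ± 0.452 CPM (SD, n = 4) in pubertal libraries, or 52.0% lower. The fitted log2 fold change was -1.03 (SE 0.24). These levels rested on few reads, between 61 in library 7 and 180 in library 2. All neighbours in the order 2, 1, 3, 8, 7, 4, 5, 6 had overlapping counting intervals. The coefficient of variation was 20.8% and 16.2% in the prepubertal and pubertal groups, against 8.55% and 11.9% from counting alone. Counting error was therefore a larger share of the spread for MGST3 than for IDH2.

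**Figure D1:**
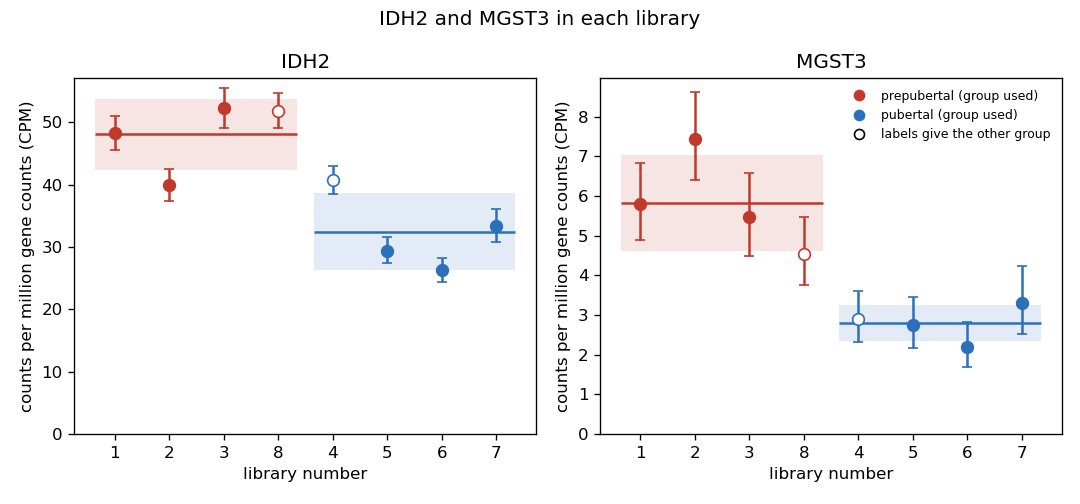
Levels of IDH2 and MGST3 in each library, in CPM, with exact Poisson 95% intervals of counting error. Lines and bands are group means and SD (n = 4 each), and open points are libraries 4 and 8, to which the labels give the other group. For IDH2, pubertal library 4 at 40.7 lies above prepubertal library 2 at 39.9, whereas for MGST3 all prepubertal points lie above all pubertal points.

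The disputed libraries changed the size of both differences. With the groups of the labels, prepubertal IDH2 averaged 45.3 ± 5.98 CPM and pubertal IDH2 35.2 ± 11.4 CPM (SD, n = 4 each), with a log2 fold change of -0.34 (SE 0.18). MGST3 then averaged 5.41 ± 1.88 and 3.20 ± 1.0 CPM, with a log2 fold change of -0.73 (SE 0.32). Both genes remained lower in the pubertal group, and for both the groups overlapped.

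Among the 6 undisputed libraries, neither gene overlapped between the groups. Leaving out libraries can only reduce overlap, and the share of all tested genes without overlap was not computed for these 6. Prepubertal IDH2 averaged 46.8 ± 6.29 CPM and pubertal IDH2 29.7 ± 3.51 CPM (SD, n = 3 each), with a log2 fold change of -0.60 (SE 0.14). MGST3 averaged 6.24 ± 1.06 and 2.75 ± 0.544 CPM, with a log2 fold change of -1.14 (SE 0.27). In library 8, IDH2 was the second highest of the 8 libraries and MGST3 the fourth. In library 4, IDH2 was the fourth highest and MGST3 the sixth.

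Without libraries 3 and 7, the log2 fold change was -0.50 (SE 0.17) for IDH2 and -1.14 (SE 0.30) for MGST3. Both genes were lower in the pubertal group in that fit and when any single library was left out. For MGST3, whose groups did not overlap, leaving out libraries could not have reversed the direction.

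Across all genes, edgeR's quasi-likelihood test called 0 of 15513 genes (0%) when a fold change above 1.2 was required together with an adjusted p below 0.05. By the Benjamini-Hochberg method the lowest adjusted p of edgeR was 0.0506, and 1681 genes had an unadjusted p under 0.05. DESeq2 called 128 genes in both directions. Of the 13933 genes with an adjusted p from DESeq2, 86 (0.617%) were called lower in the pubertal group. That set held 1 of the 2 genes, MGST3. MGST3 was also 1 of the 455 genes (2.93% of 15513) whose 4 pubertal libraries all lay below the 4 prepubertal ones. Because that contrast chose MGST3, its place in these sets is not evidence about it. The median log2 fold change of all tested genes was -0.02, and 52.5% of them were lower in the pubertal group.

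IDH2 and MGST3 ranked the prepubertal libraries nearly in reverse, but the pubertal libraries similarly. From high to low, the prepubertal order was 3, 8, 1, 2 for IDH2 and 2, 1, 3, 8 for MGST3. The pubertal order was 4, 7, 5, 6 for IDH2 and 7, 4, 5, 6 for MGST3. The group means were subtracted from log2 CPM, computed with a prior count of 2, so that the difference between the group means did not enter. The study's choice by adjusted p also weighs the spread within the groups, so the deviations are not wholly free of it. For IDH2, the prepubertal deviations were 0.01 in library 1, -0.26 in library 2, 0.13 in library 3 and 0.12 in library 8. Its pubertal deviations were 0.35 in library 4, -0.12 in library 5, -0.28 in library 6 and 0.06 in library 7. Library 4 was thus far above its group, and libraries 2 and 6 were far below theirs.

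For MGST3, the prepubertal deviations were 0.02 in library 1, 0.37 in library 2, -0.07 in library 3 and -0.33 in library 8. Its pubertal deviations were 0.07 in library 4, -0.01 in library 5, -0.31 in library 6 and 0.25 in library 7. In the prepubertal group the genes deviated in opposite directions in libraries 2, 3 and 8. In the pubertal group they deviated in the same direction in all 4 libraries, though MGST3 in library 5 lay only just below its group mean. Scaled by edgeR's normalization factors, MGST3 was at 2.98 CPM in library 5, against 2.87, 2.23 and 3.23 in libraries 4, 6 and 7. Library 5 then lay above the group mean for MGST3 and still below it for IDH2. Library 2 had the lowest IDH2 and the highest MGST3 of its group, and library 6 had the lowest level of both genes.

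Over both groups together, the correlation of these deviations was near 0. It joins mostly opposite deviations in the prepubertal group with like ones in the pubertal group, and the groups were not tested apart. Pearson's r was -0.04 (exact permutation p = 0.938, two-sided, n = 8) and Spearman's rho was -0.05 (exact permutation p = 0.932). Benjamini-Hochberg adjusted over 5 relations, the exact permutation p was 0.938 for r and 0.946 for rho. Without libraries 4 and 6, whose IDH2 deviations from the group mean lay farthest from the median deviation, r was -0.67 (exact permutation p = 0.25). A p above 0.05 with 8 libraries does not show that the genes vary independently.

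The sign of the correlation rested on single libraries. Pearson's r was 0.51 without library 2 and 0.13 without library 8, while without library 6 it was -0.54. With the groups of the labels r was 0.60 (exact permutation p = 0.115, n = 8). Centring on those groups leaves part of the difference that chose the genes in the deviations, so that r and its p are set in part by the choice and are given as a description. Among the 6 undisputed libraries it was 0.013 (exact permutation p = 0.972), and without libraries 3 and 7 it was -0.07 (exact permutation p = 0.917). Over all 8 libraries without centring, r was 0.74 and rho 0.64, a description that the choice of both genes fixed in part.

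**Figure D2:**
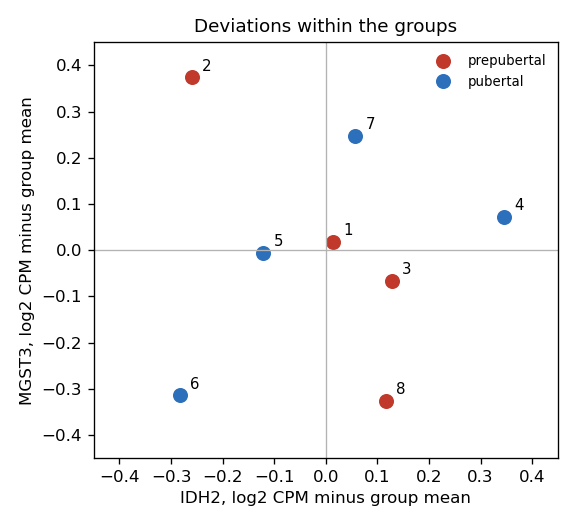
Deviation of each library from its group mean, in log2 CPM, for IDH2 on the horizontal and MGST3 on the vertical axis, with library numbers beside the points. Pubertal library 6 is low in both genes, library 4 is high mainly in IDH2 and library 7 mainly in MGST3, whereas prepubertal libraries 2 and 8 lie in opposite corners, and r over the 8 points is -0.04.

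Neither gene showed a detectable relation with the library measures within the groups. With the share of reads outside genes, r was 0.16 for IDH2 (exact permutation p = 0.649, n = 8) and 0.22 for MGST3 (exact permutation p = 0.590). With the log2 total of gene counts, r was -0.10 for IDH2 (exact permutation p = 0.872) and -0.36 for MGST3 (exact permutation p = 0.373). Each of these 4 p-values was 0.938 after adjustment over the 5 relations. The corresponding rho values were -0.12, 0.19, -0.05 and -0.33, with exact permutation p of 0.783, 0.731, 0.946 and 0.375, each 0.946 after adjustment. Libraries 3 and 7 carried much of the values for IDH2. Without them, its r was -0.82 with the share of reads outside genes (exact permutation p = 0.0833) and 0.83 with the total (exact permutation p = 0.139). Without them, r for MGST3 was 0.35 (exact permutation p = 0.611) and -0.12 (exact permutation p = 0.861).

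The within-group r of IDH2 with MGST3 was also set beside that of each gene with all other tested genes. Of the 15512 other tested genes, 9680 (62.4%) had a higher within-group r with IDH2 than MGST3 had. With MGST3, 8410 genes (54.2%) had a higher r than IDH2 had. Over all these genes, the 5th and 95th percentiles of r were -0.64 and 0.76 with IDH2, and -0.68 and 0.67 with MGST3. These correlations share the same 8 libraries and are descriptions.

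The other named genes of the table were ranked by their likeness to each gene, as within-group r over the 8 libraries. IDH2 was most like ALDH1A3, at r = 0.97, followed by GMDS at 0.92 and RDH12 at 0.75. ALDH1A3 encodes an aldehyde dehydrogenase that makes retinoic acid, GMDS an enzyme of GDP-fucose synthesis, and RDH12 a retinol dehydrogenase. Of all tested genes, 4 had a higher r with IDH2 than ALDH1A3 had, 73 than GMDS and 816 than RDH12. Among the 6 undisputed libraries ALDH1A3 was again first, at 0.98, and GMDS followed at 0.84. ATP12A, at 0.80, then came before RDH12, at 0.76.

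The order of the 8 libraries was the same for ALDH1A3 and IDH2. In the prepubertal group, ALDH1A3 was at 12.8 CPM in library 1, 7.78 in library 2, 20.6 in library 3 and 14.6 in library 8. In the pubertal group, it was at 10.9 CPM in library 4, 4.73 in library 5, 2.63 in library 6 and 6.43 in library 7. As with IDH2, library 3 was highest and library 6 lowest, and pubertal library 4 stood above prepubertal library 2. With the groups used, the gene least like IDH2 was MARS1, the cytosolic methionyl-tRNA synthetase, at r = -0.78. Among the undisputed libraries PSPH was lowest, at -0.88, against -0.61 for MARS1.

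MGST3 was most like GPHN, at r = 0.76, followed by ARSB at 0.57 and ENO1 at 0.56. GPHN encodes gephyrin, an enzyme of molybdenum cofactor synthesis that also anchors receptors at synapses. ARSB encodes a lysosomal arylsulfatase and ENO1 the glycolytic enzyme enolase. Of all tested genes, 343 had a higher r with MGST3 than GPHN had, 1387 than ARSB and 1452 than ENO1. With the groups used, the gene least like MGST3 was DHODH, the mitochondrial enzyme of pyrimidine synthesis that feeds electrons to ubiquinone, at r = -0.84. GPHN and DHODH also ranked highest and lowest among the 6 undisputed libraries, at 0.80 and -0.94. The ranks between them changed: ENO1 followed GPHN at 0.67, and ARSB, at 0.48, fell behind CA4, at 0.65, and others. The first ranks differed with the groups of the labels, where r is set in part by the choice of the genes. There GMDS at 0.97 came before ALDH1A3 at 0.96 for IDH2. For MGST3, MGST2 at 0.87, SELENBP1 at 0.84 and GPX3 at 0.833 all came before GPHN at 0.832. The lowest ranks differed too, with PSPH at -0.88 for IDH2 and ALDH2 at -0.96 for MGST3.

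MGST3 and IDH2 both belong to the glutathione metabolism list of the study, with 4 other genes. That list was drawn from differences in these same libraries, so its direction is not independent evidence. Of its 6 genes, 5 were lower in pubertal libraries, and the median log2 fold change of the 6 was -0.66, against -0.02 for all tested genes. PGD alone was higher. The groups did not overlap for 3 of the 6, MGST3, GPX3 and ANPEP, all lower in the pubertal group, where 455 of all 15513 tested genes (2.93%) were lower without overlap and 365 higher. Among the 52 named genes, which were selected in the same way, 30 did not overlap, 14 of them lower, so the count for the list is not particular to it. The split of 5 lower and 1 higher held in each of the 17 alternative fits, with medians between -0.73 and -0.47, the latter with the groups of the labels.

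Beside IDH2, PGD is the list's other source of NADPH, as 6-phosphogluconate dehydrogenase of the pentose phosphate pathway. IDH2 and PGD differed between the groups in opposite directions. PGD averaged 208.9 ± 28.2 CPM in prepubertal libraries and 294.8 ± 84.9 CPM in pubertal libraries (SD, n = 4 each), with overlapping groups and a log2 fold change of 0.54 (SE 0.19). The log2 fold change of PGD was 0.46 (SE 0.21) with the groups of the labels and 0.63 (SE 0.17) among the 6 undisputed libraries. Within the groups, r of IDH2 with PGD was -0.69 over the 8 libraries and -0.29 among the undisputed libraries. For MGST3 with PGD, r was -0.39 and -0.90. Over the 8 libraries, 14934 of all tested genes had a higher r with IDH2 than PGD had, and 12487 with MGST3.

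MGST2, a relative of MGST3 known for leukotriene synthesis, had overlapping groups, at 17.2 ± 3.55 and 10.9 ± 2.05 CPM (SD, n = 4 each) in the prepubertal and pubertal group. Its log2 fold change was -0.61 (SE 0.19), against -0.13 (SE 0.26) with the groups of the labels and -0.47 (SE 0.19) among the 6 undisputed libraries. Within the groups, r of MGST3 with MGST2 was 0.14 over the 8 libraries and 0.42 among the undisputed libraries. For IDH2 with MGST2, r was -0.53 and -0.22, but 0.47 with the groups of the labels, where the choice of the genes enters.

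GPX3, a secreted glutathione peroxidase that contains selenium, averaged 5.76 ± 0.982 CPM in prepubertal libraries and 3.42 ± 0.447 CPM in pubertal libraries (SD, n = 4 each). Its log2 fold change was -0.72 (SE 0.22), against -0.61 (SE 0.25) with the groups of the labels and -0.87 (SE 0.24) among the 6 undisputed libraries. Within the groups, r of MGST3 with GPX3 was 0.49 over the 8 libraries but 0.10 among the undisputed libraries. For IDH2 with GPX3, r was 0.13 and -0.01. Over the 8 libraries, 2101 of all tested genes had a higher r with MGST3 than GPX3 had, and 7796 with IDH2.

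ANPEP, a membrane aminopeptidase, averaged 2.73 ± 0.551 CPM in prepubertal libraries and 1.01 ± 0.609 CPM in pubertal libraries (SD, n = 4 each), from counts of 12 to 69. Its log2 fold change was -1.43 (SE 0.42), against -0.83 (SE 0.53) with the groups of the labels and -1.59 (SE 0.52) among the 6 undisputed libraries. Within the groups, r of ANPEP was 0.44 with MGST3 and 0.59 with IDH2, and 0.51 and 0.54 among the undisputed libraries. Over the 8 libraries, 2527 of all tested genes had a higher r with MGST3 than ANPEP had, and 2284 with IDH2.

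**Figure D3:**
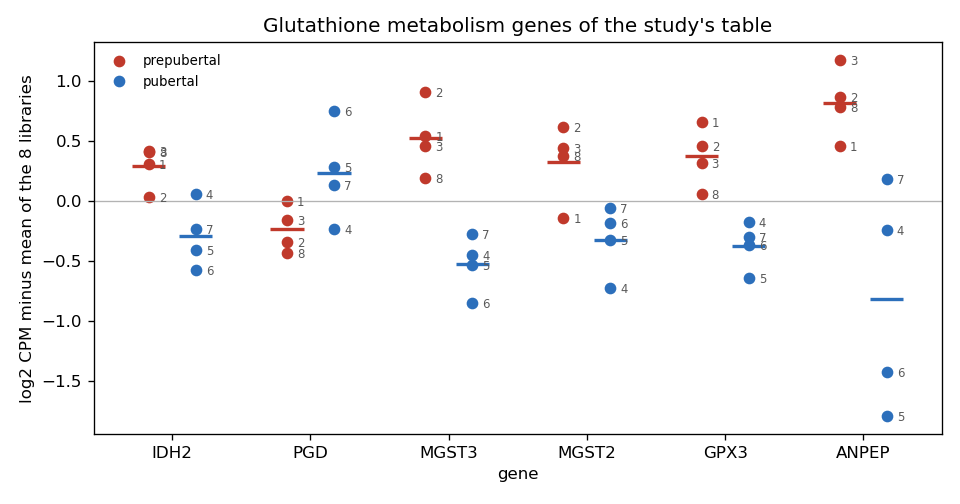
The 6 glutathione metabolism genes in each library, as log2 CPM minus the gene's mean over the 8 libraries, with library numbers beside the points and bars at the group means (n = 4 each). IDH2, MGST3, MGST2, GPX3 and ANPEP have lower pubertal means, PGD has a higher one, and the groups are apart for MGST3, GPX3 and ANPEP.

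IDH2 also belongs to the study's carbon metabolism list, whose 7 genes were chosen in the same way and showed no common direction. In that list, pubertal libraries had lower levels of 3 genes and higher levels of 4. Log2 fold changes ranged from -0.54 to 1.02, with a median of 0.47. Of the others, GCSH, of the glycine cleavage system, had the highest value, 1.02 (SE 0.21). PSPH, of serine synthesis, at 0.54 (SE 0.17), was not separable in size from PGD at 0.54 (SE 0.19) or ENO1 at -0.54 (SE 0.15). IDH2, at -0.53, was among the 3 lower genes, with ENO1 and ALDOC.

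In a RefSeq gene table of a later bovine assembly, no gene model overlapped IDH2 or MGST3. A gene model, LOC101903840, overlapped MGST2, and whether this overlap affected the counts of MGST2 was not tested. IDH2 and ANPEP lay on the same chromosome with 5 gene models between them, 3 of them protein-coding. Reads that mapped to several loci, 11.5% to 17.2% of mapped reads, were not counted for any gene. Whether reads of IDH2 or MGST3 were lost to near copies in this way was not tested.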

How the data were processed

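The deposited files hold unnormalized read counts for each Ensembl gene, in 1 file for each of the 8 libraries. By the study's methods, reads were trimmed with Flexbar, mapped with STAR to ARS-UCD1.2 and counted with HTSeq. The study gives the version of its Ensembl annotation, but the sources used here give none for these 3 tools. The library kit was stranded, but the strand setting of counting and the use of molecular identifiers are not given. Intervals therefore cover counting error only, and antisense reads cannot be told apart. HTSeq's 5 summary rows were left out of totals. Reads outside genes were 35.8% to 54.1% of uniquely mapped reads.

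Fold changes came from edgeR 4.0.16 (filterByExpr, TMM, quasi-likelihood) in R 4.3.3, with DESeq2 1.42.0 as an alternative. SE is the log2 fold change divided by the root of F. Calls needed a fold change above 1.2 together with a Benjamini-Hochberg adjusted p below 0.05. Levels are CPM of gene counts without normalization factors. Correlations used an exact enumeration of rearrangements within the groups, in Python 3.11.15 with numpy 2.4.6, scipy 1.17.1 and pandas 2.3.3. Figures were drawn with matplotlib 3.10.9. The fits were tested on simulated data.

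Named genes were IDH2, MGST3, the other genes of the glutathione list, the 2 most changed of the carbon list, and for each gene the 3 most like and the 1 least like of the other 51 named genes. The members and lists were chosen with earlier results of these data known. Wider glutathione, cell type marker and promoter lists were not analysed here, since identifiers were paired with names for 52 genes only. Groups of libraries 4 and 8 differ between the labels and the study's table, and both were run. Replicate numbers do not pair libraries. Alternatives were other groupings, DESeq2, other normalizations and filters, other prior counts, a covariate and leaving out libraries.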

Additional observations from a re-analysis of the deposited data

Results flagged for a closer look

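ALDOC, an aldolase of the carbon metabolism list that also holds IDH2, had 1 prepubertal library far from the others: library 1, at 13.8 CPM. Its gap to the nearest library was 0.837 of the range of the group. This was the only such library in 22 groups of 4 libraries examined, and chance gives about 5% of groups. No library of IDH2 or MGST3 stood apart in this way.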

How the results depend on the processing

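IDH2 and MGST3 kept their direction in all 17 alternatives. For MGST3, whose groups did not overlap, the alternatives that left out libraries could not have reversed it. The log2 fold change of IDH2 moved by less than the spread between libraries in each of them, and that of MGST3 in 16, the exception being -0.73 with the groups of the labels. Leaving out each library gave -0.64 to -0.43 for IDH2 and -1.13 to -0.87 for MGST3. The within-group correlation kept its sign in 12 of 16 alternatives. It was 0.60 with the groups of the labels, which leave part of the difference that chose the genes in the deviations, and 0.013 without libraries 4 and 8, and ran from -0.54 to 0.51 when each library was left out, positive without library 2 (0.51) or 8 (0.13). The number of genes called by edgeR, 0 with all libraries (1681 at an unadjusted p under 0.05), was 11 without libraries 4 and 8, 2 with DESeq2's size factors and 25 without the low-count filter, and DESeq2 called 128. Leaving out each library gave 0 to 8 calls: 5 without library 1, 8 without library 4, 3 without library 7 and 4 without library 8. It was 0 in the 9 others, among them the 6 libraries without 3 and 7, an alternative chosen after seeing the data. The causes were not tested. Few reads limit MGST3: at 61 to 180 counts, the counting intervals of all libraries next to each other in level overlapped, which is not a test of their difference.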
